A study of Mus musculus with 6 samples.

Results

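The SLAM family receptors are 9 genes, *Slamf1*, *Slamf6*, *Slamf7*, *Slamf8*, *Slamf9*, *Cd48*, *Cd84*, *Ly9* and *Cd244*, of 24062 genes listed for every library. They were picked by family membership once their CPM, counts scaled to a common library total, were known to differ between the genotypes. The genotype contrast therefore chose them, and their CPM and fold changes are given as a description with no test. All 9 were among the 15652 genes that passed the filter on low counts. SLAM receptors are cell-surface proteins of the immunoglobulin superfamily found almost only on blood-derived cells. Most bind a copy of themselves on a neighboring cell, whereas CD48 binds CD244 and, in rodents, CD2. Tyrosine motifs in the tails of most members recruit the small SH2 adaptors SAP and EAT-2, which decide whether the receptor activates or restrains T cells, natural killer (NK) cells, macrophages and dendritic cells.

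Bulk RNA-seq libraries from 6 mice on a mixed background labelled C57BL/6-I129 were compared. The 3 control libraries were *Nf1*fl/fl;*DhhCre*, labelled as dorsal root ganglion (DRG), and the other 3 were labelled Rx1flfl;Rx3fl/fl;DhhCre and neurofibroma tumor. The extraction protocol adds *Nf1*fl/fl to the second genotype and names DRG/tumors for both, so *Nf1* was floxed in all 6. From the labels alone, genotype and tissue cannot be told apart. The *Dhh* promoter drives Cre in Schwann cells and their precursors, and leukocytes lie outside that lineage. Whether *Runx1* and *Runx3* stayed intact in leukocytes of these tissues was not measured. Ages were not given in the labels. Titles carry a different number for each library, read here as mouse numbers, and p-values measure the spread between these libraries. In bulk tissue, fewer cells of a type and less RNA per cell cannot be told apart.

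Totals ran from 12439296 to 16682194 counts per library, and 3 counts, the limit that a count of 0 allows, equalled 0.179 to 0.247 CPM. *Runx1* was 131, 141 and 172 CPM in *Nf1*fl/fl;*DhhCre* replicates 1 to 3. In the group labelled double knockout it was 84.0, 78.9 and 185 CPM, so replicate 3 was not below the controls. *Runx3* was 13.5, 10.3 and 12.1 CPM in the group labelled double knockout against 15.1 to 29.9 CPM in *Nf1*fl/fl;*DhhCre*. Bulk counts per gene include cells that Cre does not target. They cannot show whether either gene was deleted in Schwann cells. Neither targeted gene was called, with a log2 change of -0.44 for *Runx1* (adjusted p = 0.370) and -0.79 for *Runx3* (adjusted p = 0.104) by limma-voom with Benjamini-Hochberg adjustment. *Runx2*, which was not targeted, was lower in the group labelled double knockout (log2 change -1.46, SE 0.17, adjusted p = 0.00764 by limma-voom with Benjamini-Hochberg adjustment). *Nf1* did not pass this test (log2 change -0.06, SE 0.15). Summed CPM of 6 skeletal muscle genes was 1501 in *Nf1*fl/fl;*DhhCre* replicate 2 and 10775 in double-knockout replicate 2, against 5.20 to 59.2 elsewhere. The 8 DRG neuron genes summed to 661 to 1460 CPM in the libraries labelled DRG and to 3400 to 7608 CPM in those labelled tumor, which goes against the tissue labels. Values are therefore also given without double-knockout replicate 3 and without replicate 2 of each group.

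The SLAM genes lie in one stretch of chromosome 1 (GRCm38, GENCODE M21), chr1:171559193-172590568. *Cd244* (annotated as *Cd244a*), *Ly9*, *Slamf7*, *Cd48*, *Slamf1*, *Cd84* and *Slamf6* form a run of 7 that ends at 171953170. *Slamf9* and *Slamf8* lie 522187 bases farther on. The gene bodies of *Cd244* and *Ly9* overlap on opposite strands but shared 0 annotated exonic bases. *Slamf7* shared 423 exonic bases with the antisense gene *Gm37787*, and whether counting used strand was not given, so reads there cannot be told apart.

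Promoters from RefSeq (GRCm38.p6, 250 bases before and 50 after the start) were found for 8 members, all but *Ly9*. They were searched on both strands for TGTGGT and TGCGGT, the core letters read by RUNX proteins, and for GAGGAAGT, an ETS sequence read by PU.1, the main myeloid factor of that class. One or the other RUNX core was present in 2 members, *Cd48* and *Cd84*, and in 22.4% of all 32851 promoters of this length. TGTGGT was in 16.8% and TGCGGT in 6.45% of promoters, some of which held both. GAGGAAGT was present in *Slamf9* and in 3.20% of promoters. The upstream windows that hold a match are shown because they are the only matches among the members. Capitals mark the match, and each is on the plus strand and reads in the direction of its gene. The match starts at position -76 in *Cd48* (chr1:171681905-171681932), at -45 in *Cd84* (chr1:171839641-171839668) and at -8 in *Slamf9* (chr1:172475341-172475359).
Cd48: atctcattccaTGTGGTgtgatggtagt
Cd84: gctggatggttTGTGGTgtctcccgtgt
Slamf9: taatgtgtacaGAGGAAGT
A match is a description of the letters, and no other window of the members held one. The window of *Slamf7*, chr1:171648950-171649249, lies inside its GENCODE M21 gene, which reaches 171653035 on the minus strand. Other annotated starts of the members were not searched.

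Every SLAM member had a lower fitted level in the group labelled double knockout, compared with *Nf1*fl/fl;*DhhCre*. The median log2 change of the 9 was -1.92, beside 0.02 over all genes tested. Their summed level was 347, 153 and 472 CPM in *Nf1*fl/fl;*DhhCre* replicates 1 to 3 and 69.7, 39.3 and 62.8 CPM in the group labelled double knockout. The means, 324 ± 161 and 57.3 ± 15.9 CPM (SD, n = 3 each), differed 5.66-fold. For 7 members the groups did not overlap, a separation in this direction that 20.5% of all tested genes had. Thresholds for calling a gene were an adjusted p below 0.05 and a change of more than 2-fold, which 13.4% of all genes passed, 5.36% as lower and 8.03% as higher. Past both were 3 members, *Slamf7*, *Cd84* and *Cd244*, and since this contrast chose the members nothing is read from either count. With 1 library left out the second count was 0 to 8, while the share of all genes called ran from 2.26 to 14.3%. It was 0 without *Nf1*fl/fl;*DhhCre* replicate 1 (2.26% of all genes) or double-knockout replicate 2 (6.36%) or 3 (9.98%). It was 1 without *Nf1*fl/fl;*DhhCre* replicate 3 (6.47%) or double-knockout replicate 1 (11.7%) and 8 without *Nf1*fl/fl;*DhhCre* replicate 2 (14.3%).

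**Figure D1:**
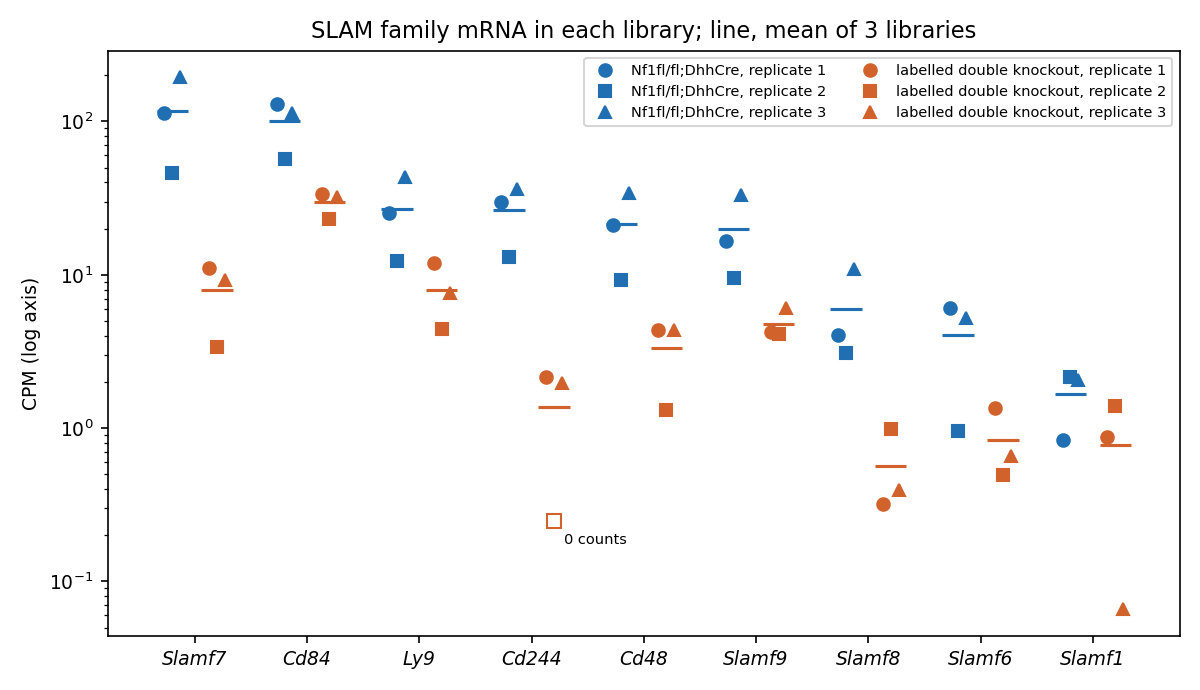
CPM of each SLAM member on a log axis, with circles, squares and triangles for replicates 1, 2 and 3, blue for Nf1fl/fl;DhhCre and orange for the group labelled double knockout, and a line at the mean of 3 libraries. The open square marks 0 counts of Cd244, drawn at 0.247 CPM, and the colors overlap only for Slamf6 and Slamf1.

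*Cd48* encodes the lipid-anchored ligand of CD244. It was 21.0, 9.23 and 34.1 CPM in *Nf1*fl/fl;*DhhCre* replicates 1 to 3 and 4.38, 1.32 and 4.36 CPM in the group labelled double knockout. All 3 control libraries were above the others, and replicate 2 was the lowest of each group. The log2 change between genotypes, fitted as double knockout minus *Nf1*fl/fl;*DhhCre*, was -2.60 (SE 0.78). Over the 6 fits that omit a library in turn (leave-one-out fits) it ran from -3.08 to -2.07.

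*Cd244*, the receptor for CD48 on NK cells and some myeloid cells, had the steepest fitted decrease of the family in the fit of all 6 libraries, a rank that rests on the library with 0 counts. It was 30.0, 13.0 and 36.1 CPM in *Nf1*fl/fl;*DhhCre* and 2.15, 0 and 1.98 CPM in the group labelled double knockout. Those values came from 432, 219 and 563 counts against 27, 0 and 30 counts, and the 0 allows up to 0.247 CPM. The lowest control library was 6.06-fold above the highest of the other group, the widest such gap in the family. Group means differed 19.1-fold. The fitted log2 change of -5.29 (SE 1.52) depends on how the 0 is handled, and without that library, replicate 2, it was -3.51, when *Slamf8* was steeper at -3.70. Without both libraries high in muscle genes *Slamf8* was also steeper, at -4.08 against -3.96. Both the ligand and its receptor were thus low in the same libraries. *Cd2*, the other receptor of CD48 and a T and NK cell adhesion molecule, was 2.01, 0.477 and 2.12 CPM against 1.04, 0.658 and 0.264 CPM. Its groups overlapped, and it was not called (log2 change -1.11, SE 0.88, adjusted p = 0.408 by limma-voom with Benjamini-Hochberg adjustment).

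*Slamf7* encodes a self-binding receptor of NK cells, macrophages and plasma cells that signals through EAT-2 and has been linked to engulfment of tumor cells. It was 113, 46.2 and 194 CPM in *Nf1*fl/fl;*DhhCre* and 11.1, 3.37 and 9.31 CPM in the group labelled double knockout. No library crossed between groups, and the lowest control library was 4.17-fold above the highest of the others. Means were 118 ± 74.0 and 7.92 ± 4.04 CPM (SD, n = 3 each), a 14.9-fold difference. The log2 change was -3.79 (SE 0.79), and leaving out 1 library moved it between -4.31 and -3.26.

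*Cd84*, a self-binding receptor of macrophages, mast cells, platelets and B cells, was the member with the tightest replicates. Its levels were 130, 56.5 and 113 CPM in *Nf1*fl/fl;*DhhCre* and 33.5, 23.2 and 32.3 CPM in the group labelled double knockout. The highest double-knockout value was below the lowest control value. The coefficient of variation was 38.6% and 19.0% within the groups. The log2 change was -1.67 (SE 0.35), a smaller decrease than that of *Slamf7* although both genes were abundant in the control libraries.

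*Ly9*, a self-binding receptor of T, B and innate-like lymphocytes and of macrophages, was 25.1, 12.3 and 43.2 CPM against 11.9, 4.44 and 7.66 CPM. The groups were separated by little, since the lowest control library was 1.03-fold the highest double-knockout library. Its log2 change was -1.66 (SE 0.59).

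*Slamf6* and *Slamf1* are self-binding receptors best known from T and B cells, and *Slamf1* also serves in macrophages as a sensor of bacteria. *Slamf6* was 6.03, 0.953 and 5.20 CPM in *Nf1*fl/fl;*DhhCre* and 1.35, 0.493 and 0.660 CPM in the group labelled double knockout. *Slamf1* was 0.832, 2.14 and 2.05 CPM against 0.877, 1.40 and 0.0660 CPM. Both overlapped between groups, *Slamf6* through *Nf1*fl/fl;*DhhCre* replicate 2 and *Slamf1* through replicate 1. *Slamf1* rested on 12, 36 and 32 counts against 11, 17 and 1 counts. Its log2 change of -1.78 (SE 0.995) became -0.49 without double-knockout replicate 3, the library with 1 count. For *Slamf6* it was -1.92 (SE 1.06) and ran from -2.77 to -1.44 over the 6 leave-one-out fits.

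*Slamf8* and *Slamf9* differ from most of the family in having short tails without the adaptor-binding motif, and both are mainly genes of myeloid cells. SLAMF8 is known to restrain the phagocyte oxidase. *Slamf8* was 4.02, 3.10 and 10.9 CPM in *Nf1*fl/fl;*DhhCre* and 0.319, 0.987 and 0.396 CPM in the group labelled double knockout. *Slamf9* was 16.5, 9.59 and 33.2 CPM against 4.22, 4.11 and 6.07 CPM. Neither overlapped between groups, and *Nf1*fl/fl;*DhhCre* replicate 3 was the highest library for both. The log2 changes were -3.27 (SE 0.97) and -1.84 (SE 0.59). *Slamf8* was the only member lowest in double-knockout replicate 1, and it came there from 4 counts.

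With double-knockout replicate 3 or replicate 2 of either group left out, every member kept a lower fitted level in the group labelled double knockout. The median log2 change was -2.04 without double-knockout replicate 3, -2.07 without double-knockout replicate 2 and -2.77 without *Nf1*fl/fl;*DhhCre* replicate 2. Without both libraries high in muscle genes, an alternative chosen after the data were seen, it was -2.54. For 4 of the 6 libraries, replicates 1 and 2 of *Nf1*fl/fl;*DhhCre* and replicates 2 and 3 of the group labelled double knockout, the mouse number in the title is that of the other library of the pair in the deposited counts. This swaps mice within a group and leaves the groups as they are. The labels place 1 double-knockout library in another sequencing run, which may therefore be replicate 2 or 3. *Slamf7* was -4.01 without replicate 3 and -3.30 without replicate 2. *Cd84* was -1.74 and -1.51, and *Cd48* was -2.91 and -2.07, in the same order. *Ly9* was -1.68 and -1.32, *Slamf9* -2.04 and -1.74, and *Slamf8* -3.09 and -3.70. *Slamf6* was -1.80 and -1.66, *Slamf1* -0.49 and -2.53, and *Cd244* -6.28 and -3.51.

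The make-up of the family's mRNA also differed between the groups. *Slamf7* made up 34.6 ± 5.73% of summed SLAM CPM in *Nf1*fl/fl;*DhhCre* and 13.1 ± 3.95% in the group labelled double knockout (SD, n = 3 each). *Cd84* made up 32.8 ± 7.65% and 52.8 ± 5.63% (SD, n = 3 each) and was the most abundant member of each library labelled double knockout. For both genes the shares did not overlap, at 30.2% or more against 15.9% or less for *Slamf7* and 37.6% or less against 48.0% or more for *Cd84*. *Cd244* went from 8.27 ± 0.542% to 2.08 ± 1.80%, and *Ly9* from 8.14 ± 0.964% to 13.5 ± 3.08% (SD, n = 3 each). *Cd48* held 6.44 ± 0.682% and 5.52 ± 1.91% (SD, n = 3 each), with overlapping groups. These shares sum to a whole within a library, so a fall in one raises the others, and they come from the contrast that chose the members.

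**Figure D2:**
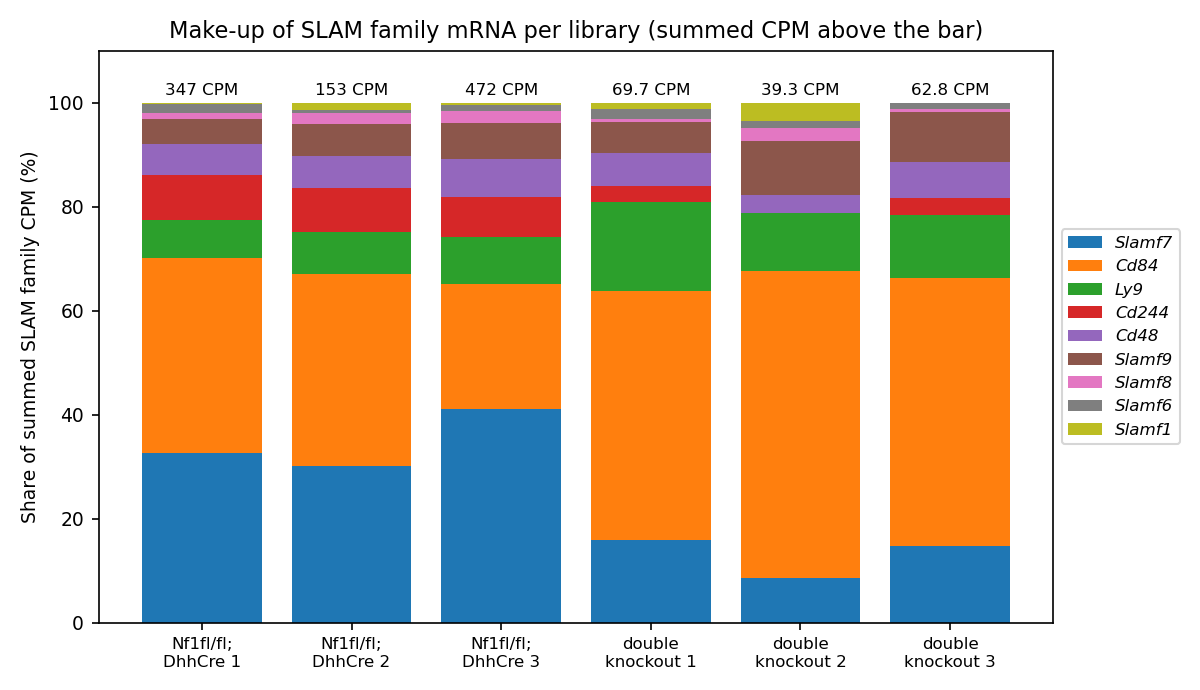
Share of summed SLAM family CPM, in percent, held by each member in each of the 6 libraries, with the summed CPM printed above each bar. The Slamf7 segment is between 30.2 and 41.1% in the Nf1fl/fl;DhhCre libraries and between 8.58 and 15.9% in those labelled double knockout, where Cd84 is the widest segment.

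Levels of different members were compared per kilobase of annotated exon. In *Nf1*fl/fl;*DhhCre* the level was 25.7 ± 16.2 CPM per kilobase for *Slamf7*, 18.0 ± 10.5 for *Cd48*, 16.0 ± 6.16 for *Cd84* and 15.1 ± 9.25 for *Slamf9* (SD, n = 3 each). *Ly9* followed at 8.13 ± 4.70 and *Cd244* at 5.41 ± 2.45 CPM per kilobase. *Slamf8* at 1.95 ± 1.39, *Slamf6* at 0.375 ± 0.251 and *Slamf1* at 0.272 ± 0.119 CPM per kilobase were the lowest. In the group labelled double knockout the leading members were *Cd84* at 4.73 ± 0.897 and *Slamf9* at 3.66 ± 0.839 CPM per kilobase. *Slamf7*, at 1.73 ± 0.882 CPM per kilobase, ranked 5 there by mean log2 level. Over all 6 libraries the order by mean log2 level was *Cd84*, *Slamf9*, *Cd48*, *Slamf7*, *Ly9*, *Cd244*, *Slamf8*, *Slamf6*, *Slamf1*. The 8 neighboring pairs were compared within library by an exact two-sided sign-flip permutation test, whose smallest p with 6 libraries is 0.03125. After Benjamini-Hochberg adjustment at least 6 pairs at that smallest p would be needed for any to pass, so the test could hardly separate neighbors, and the differences are given as a description. *Ly9* was above *Cd244* in 6 of 6 libraries, by 2.40 on the log2 scale (SD 2.66). That mean rests in part on double-knockout replicate 2, where *Cd244* had 0 counts and the difference of 7.33 is set by the prior count. Without that library it was 1.42 (SD 1.24, n = 5), and among the 3 control libraries it ran from 0.31 to 0.82. *Slamf8* lay above *Slamf6* in 5 of 6 libraries, by 1.89 on the log2 scale (SD 1.37). The pooled order hides a change of place between genotypes. *Slamf7* was above *Ly9* by 1.44 to 1.70 on the log2 scale in the control libraries and below it by 0.19 to 0.86 in the others. *Cd48* was below *Slamf7* by 0.37 to 0.56 in the former and above it by 0.61 to 0.86 in the latter.

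Within a genotype the members mostly moved together. *Nf1*fl/fl;*DhhCre* replicate 2 was the lowest of its group for 8 members, all but *Slamf1*, and replicate 3 was the highest for 6. Double-knockout replicate 2 was the lowest of its group for 7. On the log2 scale, centered on each genotype's mean, the 36 pairs of members had a median Pearson correlation of 0.62 over the 6 libraries, from -0.59 to 0.99, and 8 pairs were below 0. *Ly9* followed the mean of the other 8 members most closely (0.999), then *Slamf7* (0.967) and *Cd48* (0.922). *Slamf8* (0.0531) and *Slamf1* (-0.389) did not follow it. These correlations are descriptions over 6 points that share library and depth. Centering on the genotype means leaves fewer than 6 free values, so high correlations are easily reached. The 2 libraries high in muscle genes, replicate 2 of each genotype, were also those lowest in most SLAM members, and the part of muscle in this was not tested. The pan-leukocyte list, centered in the same way, was -0.69 and -0.72 in them.

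**Figure D3:**
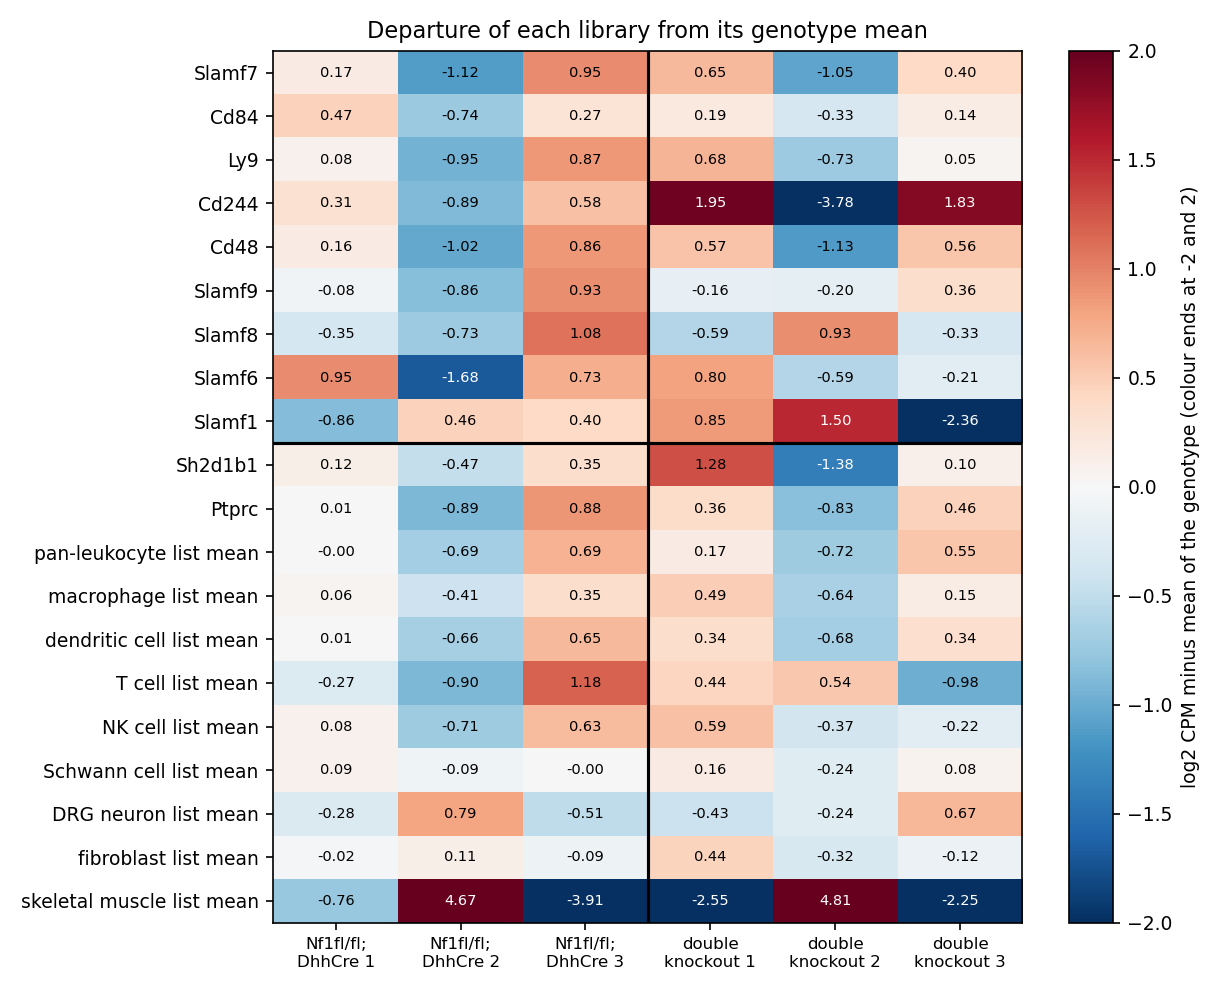
Departure of each library (columns) from the mean of its genotype in log2 CPM, for the SLAM members above the line and for Sh2d1b1, Ptprc and the mean of marker lists below it, with each value printed in its cell. Replicate 2 of each genotype is below its group mean for most SLAM members and leukocyte lists and far above it for the skeletal muscle list (4.67 and 4.81).

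By the same centered measure, the 8 genes whose pattern over the 6 libraries was most like the mean of the SLAM members were *Rps28*, *Birc3*, *Msr1*, *Cmah*, *Casp4*, *Tlr3*, *Kirrel* and *Brwd3*. Their correlations were 0.996 to 0.999, and they are the highest of 10218 genes over 6 centered points, where high correlations are easily reached. They include *Rps28*, a ribosomal protein gene, *Tlr3*, a sensor of double-stranded RNA, *Casp4*, an inflammatory caspase, and *Birc3*, an inhibitor of apoptosis. *Msr1*, a macrophage scavenger receptor, was 34.5, 20.1 and 52.7 CPM in *Nf1*fl/fl;*DhhCre* and 14.4, 7.73 and 10.9 CPM in the group labelled double knockout. *Ptprc* had a correlation of 0.947 and ranked 173 of those genes. Without centering, 4 of the 8 remained.

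Of the SAP family adaptor genes, 1 passed the filter on low counts. *Sh2d1b1*, which encodes EAT-2, was 27.3, 18.1 and 32.0 CPM in *Nf1*fl/fl;*DhhCre* and 3.35, 0.493 and 1.45 CPM in the group labelled double knockout. The groups did not overlap. It fell in the group labelled double knockout (log2 change -4.15, SE 0.67, adjusted p = 0.0120 by limma-voom with Benjamini-Hochberg adjustment). The call was lost in 1 of the 6 leave-one-out fits, that without *Nf1*fl/fl;*DhhCre* replicate 1. *Sh2d1a*, which encodes SAP, the adaptor of T and NK cells, had 0 counts in all 3 *Nf1*fl/fl;*DhhCre* libraries and 4, 1 and 0 counts in the others. *Sh2d1b2*, the second EAT-2 gene of the mouse, had 0 counts in all 6 libraries. Neither gene passed the filter on low counts, and the 1 alternative fit that tested *Sh2d1a* did not call it.

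Of 28 genes chosen for SLAM signaling and phagocytosis, 26 were tested. The test called 13 lower and 1 higher in the group labelled double knockout, and 12 were not called. Of all genes tested, 5.36% were called lower and 8.03% higher. The number called, 14 in all, was 4 without *Nf1*fl/fl;*DhhCre* replicate 1, 8 without replicate 3 of that group and 9 without double-knockout replicate 2. The median log2 change of the 26 was -1.55. The 4 phagocytic partners all fell. *Itgam*, the alpha chain of the integrin Mac-1 with which SLAMF7 cooperates in phagocytosis, was 670, 468 and 936 CPM in *Nf1*fl/fl;*DhhCre* and 126, 46.0 and 122 CPM in the group labelled double knockout (log2 change -2.89, SE 0.41, adjusted p = 0.0100 by limma-voom with Benjamini-Hochberg adjustment). *Itgb2*, its beta chain, fell by 2.42 on the log2 scale (SE 0.41). The signaling chains *Fcer1g* and *Tyrobp* (DAP12) fell by 2.89 (SE 0.51) and 2.66 (SE 0.41) on the log2 scale. *Itgam*, *Tyrobp* and the inositol phosphatase *Inpp5d* (SHIP-1), which binds the tails of inhibitory SLAM receptors, were called in all 6 leave-one-out fits, whereas *Itgb2* and *Fcer1g* lost the call without *Nf1*fl/fl;*DhhCre* replicate 1.

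Among 10 kinases, phosphatases and phospholipases of the pathway, 4 fell, 1 rose and 5 were not called. *Inpp5d* was 41.9, 31.3 and 56.9 CPM against 11.3, 5.51 and 7.86 CPM (log2 change -2.40, SE 0.35, adjusted p = 0.0106 by limma-voom with Benjamini-Hochberg adjustment). *Vav1*, the exchange factor downstream of EAT-2 and SAP, fell by 2.42 on the log2 scale (SE 0.60). The calls of *Vav1*, of the phosphatase *Ptpn6* and of the phospholipase *Plcg2* each held in 1 of the 6 leave-one-out fits, that without *Nf1*fl/fl;*DhhCre* replicate 2. *Fyn*, the kinase that SAP recruits and that Schwann cells and neurons also use, was 76.8, 63.1 and 70.2 CPM against 62.6, 56.4 and 73.5 CPM. Its groups overlapped and it was not called (log2 change -0.12, SE 0.15). The 1 gene that rose was *Prkcq*, a protein kinase C, named after its values were seen. It was 10.8, 19.0 and 6.99 CPM against 32.8, 41.9 and 60.1 CPM (log2 change 1.95, SE 0.38), highest in the library where the DRG neuron list was also highest, and the part of neurons in this was not tested. Its call was lost without *Nf1*fl/fl;*DhhCre* replicate 1 or 3. Of the 10 genes of the phagosome oxidase and of the PI3K complex that SLAMF1 joins, 4 fell and 6 were not called. Of those 4, *Ncf1* was called in all 6 leave-one-out fits, and 1 was left without *Nf1*fl/fl;*DhhCre* replicate 1.

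**Figure D4:**
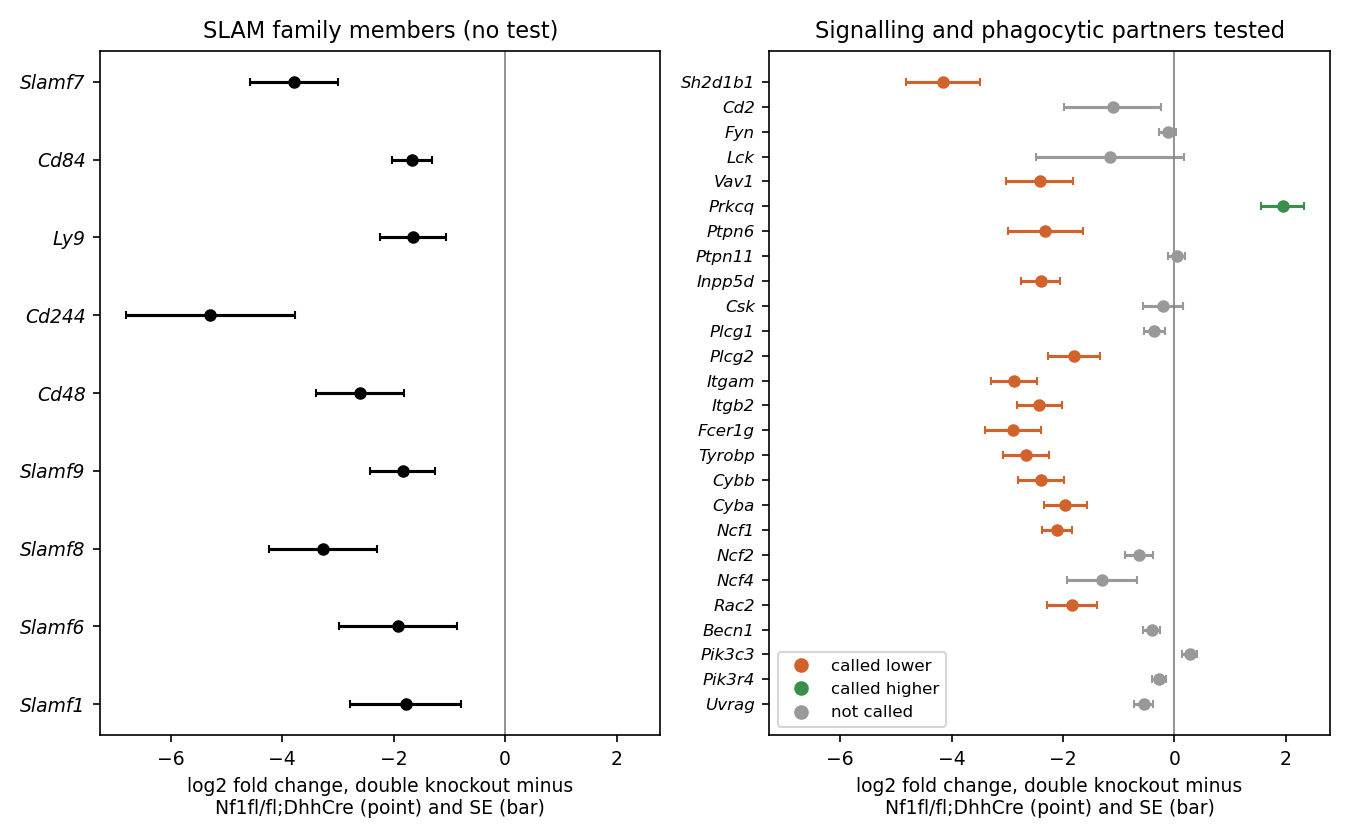
Log2 fold change, libraries labelled double knockout minus Nf1fl/fl;DhhCre, as points with SE bars, for the 9 SLAM members (left, no test) and the 26 pathway genes tested (right, colored by their call in limma-voom). Sh2d1b1 lies farthest left in the right panel at -4.15, and Prkcq is the 1 gene called higher.

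The decrease of the SLAM genes was set beside that of their neighbors on chromosome 1. Of 40 other annotated genes between the outermost members, 19 had counts listed and 14 were tested. The test called 2 lower, *Kcnj10* and *Tagln2*, beside 5.36% of all genes, and 12 were not called. For 7 of the 14 the groups did not overlap and the group labelled double knockout was lower, beside 20.5% of all genes. None was called higher by limma-voom, edgeR or DESeq2, and 2 had a higher level at an unadjusted p below 0.05. *Kcnj10*, a potassium channel of glial cells, was 432, 361 and 413 CPM in *Nf1*fl/fl;*DhhCre* and 181, 119 and 219 CPM in the group labelled double knockout (log2 change -1.25, SE 0.22, adjusted p = 0.0138 by limma-voom with Benjamini-Hochberg adjustment). The call was lost without *Nf1*fl/fl;*DhhCre* replicate 1. *Tagln2*, an actin-binding protein, had a log2 change of -1.23 (SE 0.17, adjusted p = 0.00936 by the same test). The median log2 change of the 14 was -0.41 and their range -1.25 to 0.93, while the 9 SLAM members, chosen by this contrast, were at -1.66 (*Ly9*) or lower. The ranges met in other fits. *Slamf1*, at -1.12 with edgeR and DESeq2 and -0.99 with sample quality weights, was then inside the neighbors' range, as was *Ly9* without *Nf1*fl/fl;*DhhCre* replicate 3 (-1.17). Without double-knockout replicate 3, 2 members were inside it, and *Slamf1* was at -0.49. Just outside the stretch, *Alyref2* (log2 change -1.07, SE 0.57) before *Cd244* and *Fcrl6* (log2 change -0.16, SE 0.37) after *Slamf8* were not called.

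**Figure D5:**
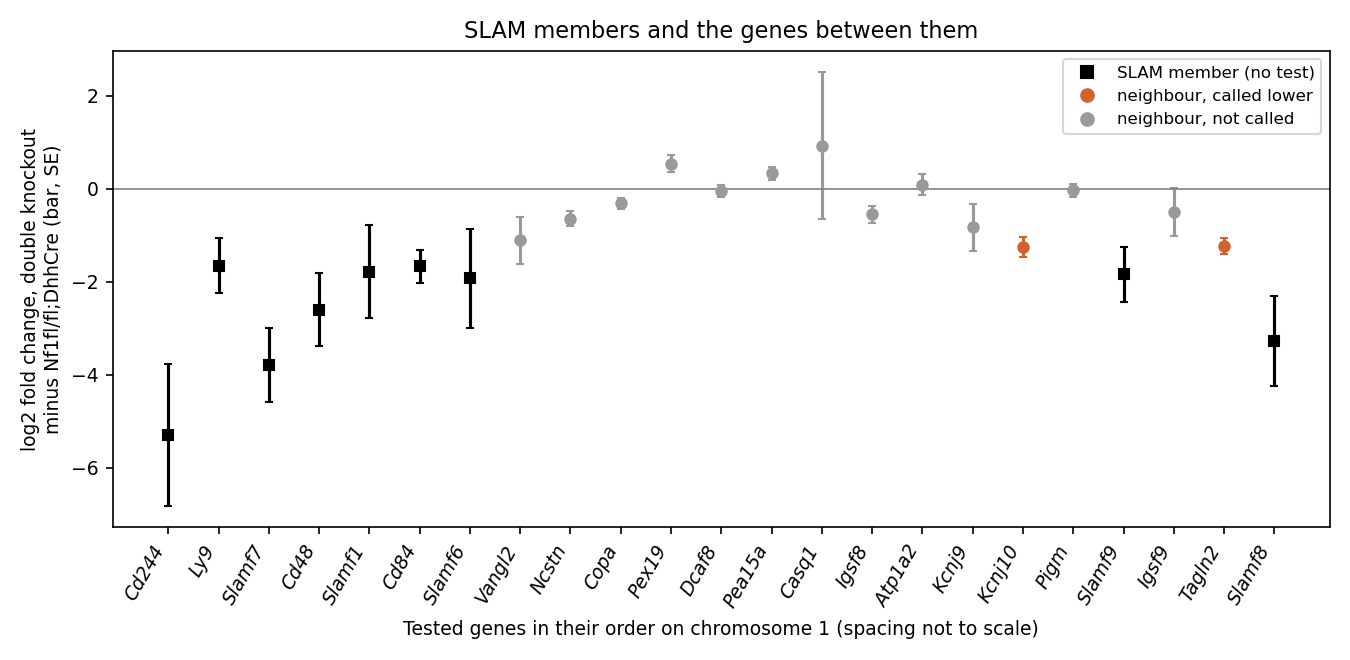
Log2 fold change with SE bars of the tested genes in their order along chromosome 1, with spacing not to scale, for SLAM members (black squares, no test) and the genes between them (circles, orange where called lower). The 9 squares lie between -5.29 and -1.66 and the 14 circles between -1.25 and 0.93.

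Most pan-leukocyte and macrophage genes listed were also called lower in the group labelled double knockout. *Ptprc*, which encodes the leukocyte antigen CD45, was 298, 159 and 542 CPM in *Nf1*fl/fl;*DhhCre* and 41.6, 18.2 and 44.6 CPM in the group labelled double knockout (log2 change -3.17, SE 0.54, adjusted p = 0.0132 by limma-voom with Benjamini-Hochberg adjustment). Of 8 pan-leukocyte genes 6 were called lower, and their summed level was 619 to 1642 CPM against 150 to 310 CPM. Of 12 macrophage genes 10 were called lower, with summed levels of 970 to 1630 CPM against 259 to 546 CPM. *Csf1r*, the receptor that macrophages need, was 200, 131 and 331 CPM against 66.5, 30.7 and 47.1 CPM. Of 7 tested dendritic cell genes 2 were called lower by limma-voom and 4 were called by edgeR, by DESeq2 and by limma-voom without *Nf1*fl/fl;*DhhCre* replicate 2, and the list summed to 225 to 476 CPM against 51.1 to 83.3 CPM. These calls depended on single libraries. Without *Nf1*fl/fl;*DhhCre* replicate 1, 1 pan-leukocyte gene (*Arhgdib*), 0 macrophage genes and 1 dendritic cell gene (*Clec9a*) were called, and without double-knockout replicate 2 the macrophage count was 4. *C1qa* and the dendritic cell gene *Flt3* were called in none of the 6 leave-one-out fits, and *Fcgr1* and *Cx3cr1* in 1.

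Lymphocyte markers were scarce. The 9 T cell genes summed to 17.5 to 66.0 CPM in *Nf1*fl/fl;*DhhCre* and 5.35 to 12.2 CPM in the group labelled double knockout. Of them 8 were tested and 0 were called by limma-voom, while 3 had an unadjusted p below 0.05, and edgeR called 1 and DESeq2 called 3. Without *Nf1*fl/fl;*DhhCre* replicate 2, limma-voom called 1 T cell gene. *Cd3e* was 3.54, 1.31 and 8.27 CPM against 1.28, 1.73 and 0.0660 CPM. The 8 NK cell genes summed to 8.94 to 36.3 CPM against 2.05 to 4.38 CPM, and *Klrb1c* (NK1.1) was the 1 called, lower, of 4 tested, a call that 2 of the 6 leave-one-out fits kept. The 6 B cell genes summed to 2.91 to 14.2 CPM against 4.22 to 5.43 CPM, and none of the 4 tested was called by limma-voom, edgeR or DESeq2 or had an unadjusted p below 0.05.

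Other lists gave a mixed picture. The plasma cell, neutrophil and mast cell lists had no call by limma-voom in all 6 libraries, and their summed levels overlapped between groups. Without *Nf1*fl/fl;*DhhCre* replicate 2, limma-voom called 1 plasma cell and 1 neutrophil gene. An unadjusted p below 0.05 was found for 0 of 2 tested plasma cell genes, 2 of 6 neutrophil genes and 1 of 8 mast cell genes. For these lists edgeR made 0, 1 and 0 calls and DESeq2 1, 1 and 0 calls. Of 3 tested eosinophil genes *Ccr3* was called lower, with 0 counts in all 3 libraries labelled double knockout, and 1 of the 6 leave-one-out fits kept that call. Of 6 genes of Schwann cells, the cells that Cre targets, 2 rose and 4 were not called. All 8 DRG neuron genes rose in the libraries labelled tumor, and 3 of 4 fibroblast genes fell. Without *Nf1*fl/fl;*DhhCre* replicate 1, 0 neuron genes and 1 fibroblast gene were called, and without replicate 3 of that group 3 neuron genes were. In all 6 libraries none of 3 endothelial and 6 skeletal muscle genes was called by limma-voom, edgeR or DESeq2, or had an unadjusted p below 0.05. Without double-knockout replicate 3, limma-voom called 1 endothelial gene. *Sox10*, the Schwann cell transcription factor, was at 195 to 241 CPM against 200 to 256 CPM. The part of the neuron and fibroblast genes in the SLAM values was not tested.

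Set against leukocyte RNA, summed SLAM CPM was 35.9, 24.7 and 28.8% of the summed pan-leukocyte list in *Nf1*fl/fl;*DhhCre* and 29.9, 26.2 and 20.2% in the group labelled double knockout. The groups overlapped on this scale, with means of 29.8 ± 5.66% and 25.4 ± 4.88% (SD, n = 3 each). *Lcp1*, a list gene not called, held 90.2, 77.1 and 146 of 233, 150 and 310 CPM in the group labelled double knockout. In *Nf1*fl/fl;*DhhCre* it held 198, 117 and 352 of 966, 619 and 1642 CPM. The order of these means depends on that gene. Against the macrophage list the sum was lower in the group labelled double knockout, at 27.7, 15.8 and 29.0% against 12.8, 15.2 and 14.7%. Against *Ptprc* alone it was higher there, at 116, 96.2 and 87.1% against 168, 216 and 141%. Neither of these overlapped, so the direction for the family sum depended on the reference. The separation against the macrophage list in turn depends on *Mertk*, a gene of that list that was not called. *Mertk* was 94.7, 142 and 88.1 CPM in *Nf1*fl/fl;*DhhCre* and 122, 74.3 and 91.7 CPM in the group labelled double knockout. Lower without overlap against all 3 references were 2 members, *Slamf7* and *Cd244*. *Slamf7* was 10.3 ± 2.48% of the pan-leukocyte list in *Nf1*fl/fl;*DhhCre* and 3.33 ± 1.28% in the group labelled double knockout (SD, n = 3 each). Its lowest control value was 7.46% and the highest of the others 4.75%. *Cd244* was 2.47 ± 0.549% and 0.520 ± 0.472% (SD, n = 3 each), again without overlap. *Cd84* was 9.84 ± 3.35% and 13.4 ± 2.66% of the pan-leukocyte list (SD, n = 3 each), with overlapping groups. Relative to *Ptprc*, whose log2 change was -3.17 beside -1.67 for *Cd84*, *Cd84* was instead higher in the group labelled double knockout, at 33.4 ± 11.6% against 93.5 ± 29.8%, and so was *Ly9*, at 8.04 ± 0.358% against 23.4 ± 5.77% (SD, n = 3 each). *Slamf9*, at 5.54 to 6.13% against 10.2 to 22.6%, and *Cd48*, at 5.81 to 7.05% against 7.24 to 10.5%, were likewise higher without overlap relative to *Ptprc*. Relative to the macrophage list *Cd84* and *Ly9* overlapped between groups, with *Cd84* at 7.73 ± 2.39% and 7.55 ± 1.41% and *Ly9* at 1.97 ± 0.694% and 1.89 ± 0.246% (SD, n = 3 each). These ratios use the contrast that chose the members and are a description.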

How the data were processed

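RNA was amplified with the NuGEN Ovation system and sequenced from Nextera XT libraries by the authors, whose processing notes name CASAVA 1.4, TopHat, featureCounts, limma and build mm10. The deposited values are counts of reads per gene symbol, not normalized by the authors. The annotation, strandedness and handling of multi-mapping reads are not given in the sources used here.

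Here filterByExpr removed low genes (minimum count 10 and minimum total 15), and TMM factors and limma-voom gave the fit (R 4.3.3, edgeR 4.0.16, limma 3.58.1), with genotype as the only term and Benjamini-Hochberg adjustment over all 15652 genes. Log2 CPM used a prior count of 0.5. The members and gene lists were chosen with earlier results of these data known. Genes named were the members, the adaptors and *Cd2*, the 6 other pathway genes called with the largest change and *Fyn*, called neighbors and the nearest outside them, the 8 genes of most similar pattern, defining markers and the *Runx* genes and *Nf1*. *Prkcq*, *Ptpn6*, *Plcg2*, *Ncf1*, *Lcp1*, *Mertk* and list genes named for their leave-one-out calls were chosen after their values were seen. Lengths and positions came from GENCODE M21. Lists covered pan-leukocyte, macrophage, dendritic, T, NK, B, plasma, neutrophil, mast, eosinophil, Schwann, neuron, fibroblast, endothelial and muscle genes. The steps were tested on simulated data. Alternatives were the quasi-likelihood test of edgeR, the test and the size factors of DESeq2 1.42.0, library size only, CPM above 1 in at least 3 libraries, no filter, sample quality weights and leaving out each library. Member proteins were not analysed here. Figures were drawn with matplotlib 3.10.9.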

Additional observations from a re-analysis of the deposited data

How the results depend on the processing

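All 126 recomputed member fold changes, 9 members in 14 alternatives, kept their sign and moved by less than 1 SD of that gene's replicates. That SD includes the outlying libraries. *Slamf1* went from -1.78 to -0.49 without double-knockout replicate 3, and *Cd244* from -5.29 to -3.51 without double-knockout replicate 2. The members' median went from -1.92 to -2.77 without *Nf1*fl/fl;*DhhCre* replicate 2, more than the within-genotype SD of their mean log2 level (0.692). The count of members past both thresholds was less stable than their values. It was 3 in limma-voom, where 13.4% of all genes were called, and 2 with the size factors of DESeq2 in limma-voom, where *Cd244* lost the call and 13.3% were called. It was 6 with edgeR's quasi-likelihood test (14.5% of all genes), 8 with DESeq2 (18.6%), 7 with sample quality weights (16.0%) and 7 without both muscle-rich libraries (11.1%). It ran from 0 to 8 when 1 library was left out, as the share of all genes called ran from 2.26 to 14.3%, with 0 without *Nf1*fl/fl;*DhhCre* replicate 1 or double-knockout replicate 2 or 3, and 8 without *Nf1*fl/fl;*DhhCre* replicate 2. Leaving out 1 library moved the members' median from -2.77 to -1.61, the genes called in the whole table from 362, when *Nf1*fl/fl;*DhhCre* replicate 1 was left out, to 2285, the pathway genes called from 4 (without the same library) to 14, and the neighbors called from 1 to 2. The whole table gave 2096 calls in all 6 libraries, 1033 without *Nf1*fl/fl;*DhhCre* replicate 3 and 1018 without double-knockout replicate 2. Fits with as many libraries made 2285 calls without *Nf1*fl/fl;*DhhCre* replicate 2 and 1881 without double-knockout replicate 1. The cause of the losses was not tested. Without centering on genotype, 4 of the 8 genes of most similar pattern remained. In the order per length, 7 of 8 neighboring pairs kept their order with a prior count of 2 and 6 of 8 with the longest transcript as length. No paired analysis was possible because replicate numbers follow label order and pair no mice. Depth limits 5 members, *Cd244*, *Slamf1*, *Slamf8*, *Slamf6* and *Cd48*, and 7 pathway genes most, which had 20 or fewer counts in at least 1 library.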
